A study of Mus musculus with 12 samples.

Results

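The mitochondrial carrier family comprises the Slc25a proteins and the uncoupling proteins Ucp1, Ucp2 and Ucp3, and its transcripts were described in mouse tumours driven by a fusion of EWSR1 and ATF1 and in skeletal muscle. Members were the protein-coding genes whose symbol is Slc25a followed by a number, or Ucp1, Ucp2 or Ucp3. They numbered 50 of the 55536 genes in the count table, and the choice used no measured value. RNA was sequenced from 12 samples. Translocation tumours (n = 5) carried HprtCre with Ewsr1-loxP and Atf1-loxP alleles, so that recombination joins the endogenous genes. Rosa26 tumours (n = 6) carried Rosa26-LSL-EWSR1-ATF1, a fusion cDNA behind a stop cassette at the Rosa26 locus, and the way Cre was delivered to them is not given in the sources used here. The muscle group was a single wild-type sample (1 library), and values against it have no replicate check. All tumours were induced genetically without any drug and were frozen when the primary tumour made the mouse ill. The labels do not say whether samples came from separate mice. The titles of translocation tumours 2 and 5 share a number, although the sex inferred from sex-linked genes differed between these 2 samples. Those of translocation tumour 1 and the muscle also share a number, and the titles of Rosa26 tumours 5 and 6 differ in the last digit only. P-values therefore describe how far these samples scatter, and part of that scatter may be technical.

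Carriers of this family are small proteins that sit, with few exceptions, in the inner mitochondrial membrane and exchange metabolites between the cytosol and the matrix. The ADP/ATP carriers export the ATP made by oxidative phosphorylation, and other members move phosphate, aspartate, citrate, acylcarnitines, cofactors, glutathione or iron. Several carriers come in pairs with tissue preferences: Slc25a4 is the ADP/ATP carrier of heart and skeletal muscle and Slc25a5 that of proliferating cells, while Ucp1 belongs to brown fat and Ucp3 to skeletal muscle. ATF1, which gives the fusion its DNA-binding domain, recognises the cAMP response element (CRE).

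Promoters are shown for the carriers on which the results turn: the pair of ADP/ATP carriers, Ucp1, the single member that passed the test between tumour models (Slc25a48), and the members with a full CRE (Slc25a25, at the third of its promoters, and Slc25a36). Each sequence is the 250 bases before a transcription start, 5′ to 3′ on the gene's strand, taken from RefSeq on GRCm38.p6. Capitals mark a full CRE, TGACGTCA, or in Ucp1 a short CRE, TGACG.
Slc25a25 promoter, chr2:32424067-32424316, minus strand: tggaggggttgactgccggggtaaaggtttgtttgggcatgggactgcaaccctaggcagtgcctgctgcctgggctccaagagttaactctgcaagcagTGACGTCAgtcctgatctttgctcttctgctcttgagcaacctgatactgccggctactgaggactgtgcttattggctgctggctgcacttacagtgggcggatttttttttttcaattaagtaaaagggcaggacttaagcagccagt
Slc25a36 promoter, chr9:97111042-97111291, minus strand: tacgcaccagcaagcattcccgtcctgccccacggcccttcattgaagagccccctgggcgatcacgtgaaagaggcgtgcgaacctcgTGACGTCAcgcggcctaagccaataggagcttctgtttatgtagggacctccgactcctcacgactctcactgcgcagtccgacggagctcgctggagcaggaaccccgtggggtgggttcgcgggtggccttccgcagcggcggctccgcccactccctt
Ucp1 promoter, chr8:83290098-83290347, plus strand: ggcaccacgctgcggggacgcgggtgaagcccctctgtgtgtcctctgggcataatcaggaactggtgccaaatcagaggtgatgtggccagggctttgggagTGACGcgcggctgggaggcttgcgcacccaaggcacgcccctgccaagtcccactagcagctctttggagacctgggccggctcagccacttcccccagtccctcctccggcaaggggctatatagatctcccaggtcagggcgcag
Slc25a4 promoter, chr8:46211063-46211312, minus strand: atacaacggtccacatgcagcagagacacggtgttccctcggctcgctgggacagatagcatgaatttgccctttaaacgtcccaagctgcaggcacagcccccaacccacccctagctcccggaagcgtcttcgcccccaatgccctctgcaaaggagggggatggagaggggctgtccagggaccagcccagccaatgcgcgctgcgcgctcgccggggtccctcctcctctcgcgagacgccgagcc
Slc25a5 promoter, chrX:36795347-36795596, plus strand: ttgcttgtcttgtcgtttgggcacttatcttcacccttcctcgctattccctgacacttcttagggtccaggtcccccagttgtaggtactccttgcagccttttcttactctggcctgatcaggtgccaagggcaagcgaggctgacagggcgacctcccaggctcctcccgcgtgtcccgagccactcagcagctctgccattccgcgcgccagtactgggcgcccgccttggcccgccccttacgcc
Slc25a48 promoter, chr13:56438105-56438354, plus strand: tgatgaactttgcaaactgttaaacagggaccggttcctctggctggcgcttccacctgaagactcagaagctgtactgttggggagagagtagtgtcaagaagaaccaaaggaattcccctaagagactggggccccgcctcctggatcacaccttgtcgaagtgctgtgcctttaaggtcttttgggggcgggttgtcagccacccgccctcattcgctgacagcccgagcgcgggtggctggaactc

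RefSeq promoters of 300 bases, 250 before and 50 after the start, matched 39 of the 50 members with 49 promoters. Searched on both strands, a full CRE was present in 2 of these 49 (4.08%), against 1.79% of all 32851 promoters. It began 150 bases upstream of the start in Slc25a25, which carries ATP-Mg in exchange for phosphate, and 161 bases upstream in Slc25a36, a pyrimidine nucleotide carrier. The short CRE TGACG, which a full CRE contains on both strands, was present in 16 member promoters (32.7%), against 20.8% of all. The short CRE of Ucp1 began 147 bases upstream. Slc25a48 also had a short CRE in this search, outside the 250 bases shown. The site of estrogen-related receptors, AAGGTCA, was found in the promoter of Slc25a34 alone (2.04% of member promoters, against 4.72% of all). The NRF1 motif was in 0 of the 49 (0.971% of all), and so was the MEF2 motif (0.557% of all). Slc25a25 averaged 24.1 ± 10.5 CPM in translocation tumours and 23.9 ± 8.15 CPM in Rosa26 tumours (SD, n = 5 and 6), against 67.1 CPM in muscle. Slc25a36 averaged 66.5 ± 15.5 CPM in translocation tumours and 63.5 ± 16.0 CPM in Rosa26 tumours, against 118 CPM in muscle. Neither gene with a full CRE passed the test between the tumour models (edgeR adjusted p = 0.947 and 0.812). Both models carry the fusion, so this test does not compare tumours with and without it.

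Counts assigned to genes totalled 2.96 to 21.2 M in translocation tumours, 6.82 to 21.5 M in Rosa26 tumours and 25.04 M in muscle, and the members took 0.112 to 0.386%, 0.0884 to 0.223% and 0.510% of them in these groups. Levels are CPM, counts relative to the library total, scaled by TMM, a method that sets libraries to a shared scale through the bulk of genes, over all 12 libraries. Levels of different genes are compared only as RPKM, the CPM divided by the exonic length in kilobases. The tissue labels were checked with marker genes. The 15 skeletal muscle markers summed to 22.6 to 7638 CPM in translocation tumours (highest in tumour 2), 17.5 to 86666 CPM in Rosa26 tumours (highest in tumour 1, then 4918 CPM in tumour 3) and 577531 CPM in muscle. Among melanocytic markers of clear cell sarcoma, Mlana had 0 counts in all libraries and Tyr and Tyrp1 were at or near 0. The 7 melanocytic markers summed to 9.70 to 464 CPM in translocation tumours and 15.7 to 54.9 CPM in Rosa26 tumours, against 77.8 CPM in muscle. The highest sum, in translocation tumour 5, came from Dct (300.1 CPM) and Mitf (163 CPM), while Pmel (0.837 CPM) and Sox10 (0.0930 CPM) were low there, and Mitf was at 76.95 CPM in muscle. In bulk samples, fewer cells of a type and less RNA per cell cannot be told apart.

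The ADP/ATP carriers and the phosphate carrier supply the ATP synthase with substrate. By RPKM, Slc25a4 was the most abundant member in all 3 groups, at 232 ± 223 RPKM in translocation tumours, 128 ± 78.4 RPKM in Rosa26 tumours and 3600.6 RPKM in muscle. Slc25a5 ranked second in both tumour groups, at 109 ± 122 and 37.0 ± 11.8 RPKM in translocation and Rosa26 tumours, and sixth in muscle at 58.1 RPKM. The order of the next members also differed, with Slc25a11 and Slc25a3 following in both tumour groups at 30.1 to 52.5 RPKM, whose ranges over tumours overlap. In muscle the order after Slc25a4 was Slc25a11 (256 RPKM), Slc25a3 (153 RPKM), Ucp3 (106 RPKM) and Slc25a12 (98.0 RPKM).

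As a share of the members' summed RPKM, Slc25a4 held 21.6, 30.5, 25.2, 32.2 and 45.3% in translocation tumours 1 to 5, and 13.6 to 47.8% in Rosa26 tumours (highest in tumour 1), against 78.5% in muscle. Slc25a5 held 5.25 to 23.3% in translocation tumours and 4.94 to 11.2% in Rosa26 tumours, against 1.27% in muscle. All 11 tumours thus gave a smaller share to Slc25a4 and a larger share to Slc25a5 than the muscle library. Slc25a3 held 6.89 to 8.42% and 6.54 to 8.53% in translocation and Rosa26 tumours, against 3.34% in muscle. The summed RPKM was 435 to 1392 in translocation tumours and 278 to 574 in Rosa26 tumours, against 4589 in muscle. Shares within a library do not depend on scaling between libraries.

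**Figure D1:**
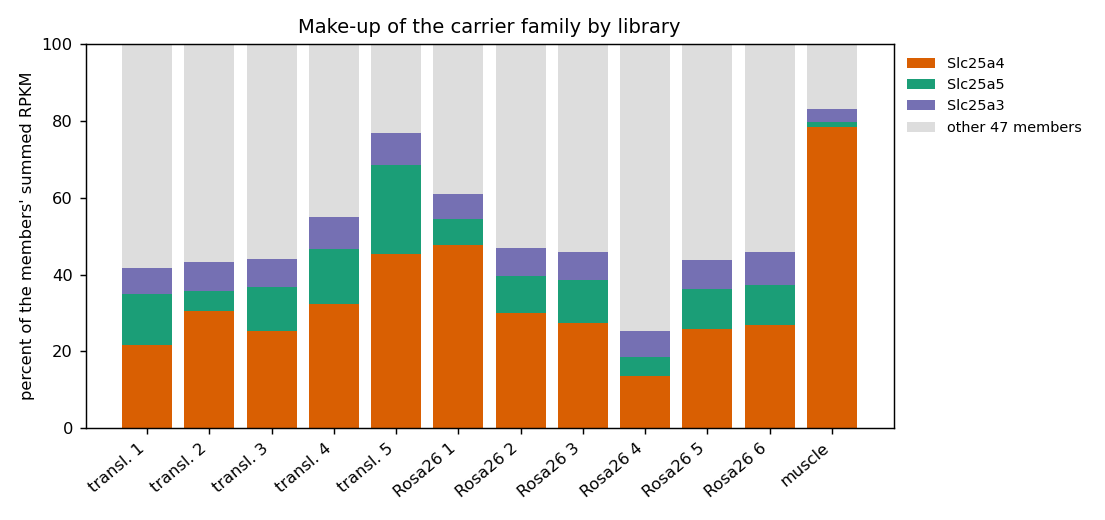
Share of the members' summed RPKM (percent, vertical axis) held by Slc25a4, Slc25a5, Slc25a3 and the other 47 members in each library. Slc25a4 fills 78.5% of the muscle bar and 13.6 to 47.8% of each tumour bar.

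Slc25a4 measured 250.1, 313, 344, 344 and 1484 CPM in translocation tumours 1 to 5 and 89.1, 262 and 645 CPM in Rosa26 tumours (lowest, median, highest), against 8472 CPM in muscle. The tumour groups overlapped and all tumours lay below muscle. Translocation tumour 5 and Rosa26 tumour 1 were the highest of their groups, and this Rosa26 tumour also had the highest skeletal muscle marker level. Slc25a5 measured 108, 37.7, 109, 106.9 and 533 CPM in translocation tumours and 22.6, 65.8 and 75.2 CPM in Rosa26 tumours, against 95.7 CPM in muscle. In translocation tumours 1, 3, 4 and 5 the level was above that of all Rosa26 tumours, and translocation tumour 2, the library with the fewest counts, lay among them. The log2 fold change of translocation over Rosa26 was 1.60 ± 0.57 (SE), with an adjusted p of 0.120 in edgeR's quasi-likelihood test. Slc25a3, the phosphate carrier, measured 188, 183, 238, 212 and 633 CPM in translocation tumours and 105.2, 179 and 208 CPM in Rosa26 tumours, against 849.9 CPM in muscle. Its log2 fold change was 0.82 ± 0.36 (edgeR adjusted p = 0.186), and that of Slc25a4 was 0.91 ± 0.56 (edgeR adjusted p = 0.337). None of the 3 passed the test. Without translocation tumour 5 the fold changes of Slc25a5, Slc25a3 and Slc25a4 were 0.61, 0.31 and 0.098. Slc25a31, the testis form of the ADP/ATP carrier in mouse, had 0 to 6 counts per tumour library and 1 in muscle.

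**Figure D2:**
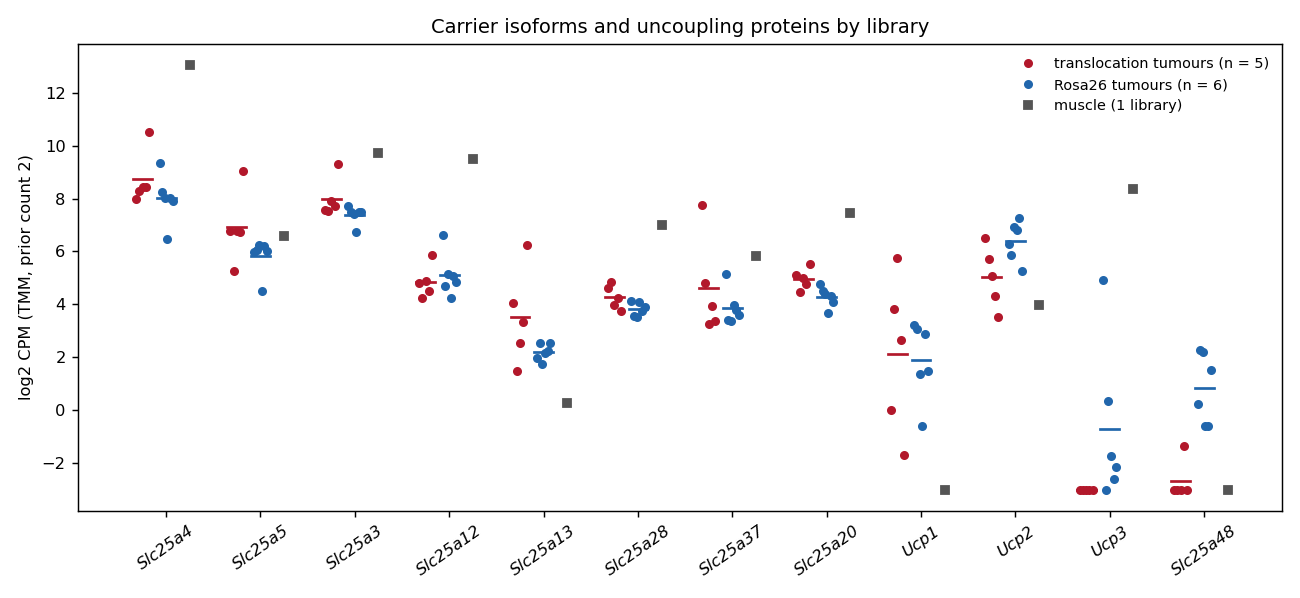
Level (log2 CPM with a prior count of 2, vertical axis) of 12 members in each translocation tumour, Rosa26 tumour and the muscle library; points are libraries and bars are group means. Points near the bottom of the axis are counts of 0, whose height is set by the prior count. Ucp3 is at 0 counts in all 5 translocation tumours and at 332 CPM in muscle.

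Between the tumour models, 1 member passed the test: Slc25a48, a carrier linked to mitochondrial choline import, was lower in translocation tumours. It had 0, 0, 0, 5 and 0 counts in translocation tumours 1 to 5 and 18, 59, 109, 3, 14 and 56 counts in Rosa26 tumours 1 to 6, against 0 in muscle. In CPM this was 0 to 0.259 in translocation tumours and 0.525 to 4.66 (median 1.90) in Rosa26 tumours, so that the groups did not overlap. The gene passed the filter on low counts through the Rosa26 tumours alone, so the groups had to differ for it to be tested. The log2 fold change was -5.03 ± 1.14 (SE) and the adjusted p was 0.0429 in edgeR's quasi-likelihood test over 17021 genes. With so few counts the call was close to the threshold: over the alternatives in which the gene was tested, its adjusted p ran from 0.000206 to 0.0852, and without any 1 of Rosa26 tumours 1, 2, 3, 5 or 6 it fell under the count filter. Leaving out translocation tumour 1, 2, 3 or 5 or Rosa26 tumour 4 ended the call (log2 fold change -5.19 to -4.62), and without translocation tumour 4 it stayed (-8.28, edgeR adjusted p = 0.0389). The T and NK cell marker genes summed to 2.14 to 23.5 CPM in translocation tumours and 7.58 to 103 CPM in Rosa26 tumours. Of the 8 tested, 2, Cd3e and Trac, were called lower in translocation tumours (edgeR adjusted p = 0.0413 and 0.0498), against 1.56% of all genes. Both were at or under 0.288 CPM in every translocation tumour. They too passed the filter through the Rosa26 tumours alone, so their calls carry the same limit. Within the Rosa26 group, tumour 2 had the lowest sum of these markers and the highest Slc25a48 (4.66 CPM). Tumour 1 had the highest sum, with Slc25a48 at 1.04 CPM. The part of these markers in the Slc25a48 result was not tested.

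In all, 44 of the 50 members passed the filter on low counts, and the test called 0 of them higher and 1 lower in translocation tumours. Over all 17021 genes tested, 1.14% were called higher, 1.56% lower and 2.70% in either direction. At an unadjusted p under 0.05 there were 9 members, against 24.8% of all genes. All translocation tumours lay above all Rosa26 tumours for 0 members (2.20% of all genes) and below them for 1 member, Slc25a48 (3.12%), so that groups did not overlap for 1 member, against 5.32% of all genes. The log2 fold change was positive for 31 of the 44 members (70.5%), against 53.2% of all genes, and the median was 0.18 for the members and 0.07 for all genes. Slc25a18, Slc25a21, Slc25a31, Slc25a41, Slc25a54 and Ucp3 were not tested. Of these, Slc25a54 had 0 counts in all 12 libraries, and Slc25a18, Slc25a21 and Slc25a41 had at most 2 counts in any library. DESeq2's Wald test called 4 members higher in translocation tumours (Slc25a13, Slc25a20, Slc25a33 and Slc25a5) and 1 lower (Slc25a48), against 7.56% and 7.36% of all genes. Limma voom with quality weights called 1 higher (Slc25a20) and 1 lower (Slc25a48), against 7.36% and 8.22% of all genes. In edgeR with sex as a covariate, 4 members were called higher (Slc25a13, Slc25a17, Slc25a3 and Slc25a5) and 1 lower (Slc25a48), against 9.11% and 5.78% of all genes.

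**Figure D3:**
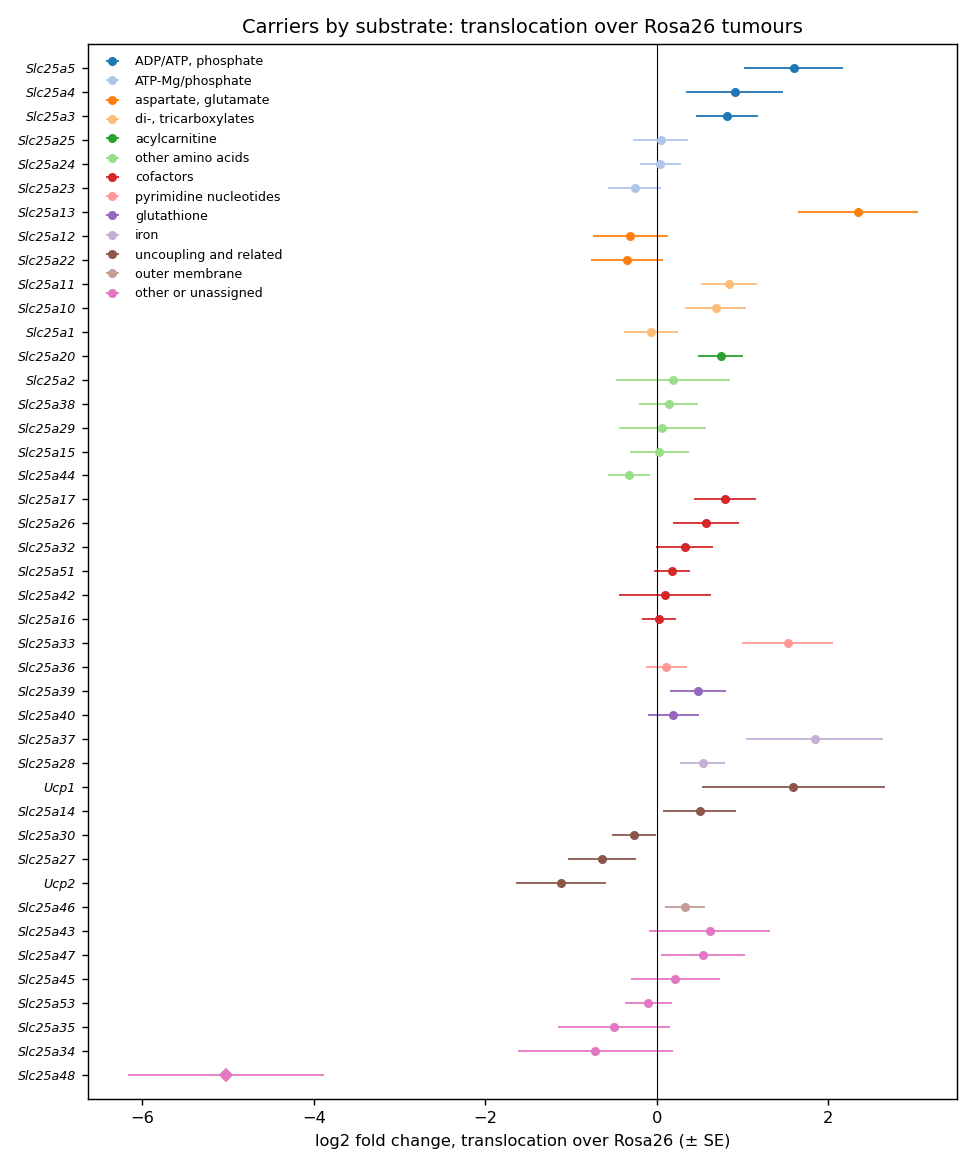
Log2 fold change of translocation over Rosa26 tumours (horizontal axis, with SE) of 43 of the 44 tested members, grouped and coloured by transported substrate. The diamond is Slc25a48, at -5.03, and no other member passed the test.

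The aspartate/glutamate carriers export aspartate from the matrix as part of the malate-aspartate shuttle, Slc25a12 in excitable tissue and Slc25a13 in liver and dividing cells. Slc25a13 measured 16.5, 2.63, 5.72, 9.79 and 76.4 CPM in translocation tumours and 3.19, 4.47 and 5.60 CPM in Rosa26 tumours, against 1.07 CPM in muscle. Every tumour exceeded muscle, and translocation tumours 1, 3, 4 and 5 exceeded all Rosa26 tumours. Its log2 fold change between models, 2.35 ± 0.70, had an edgeR adjusted p of 0.0773. Without translocation tumour 5 it was 0.997 (edgeR adjusted p = 0.191), and without translocation tumour 2, where it rests on 6 counts, it was 2.64 (edgeR adjusted p = 0.0486). Over all alternatives the adjusted p ran from 0.00989 to 0.191. Slc25a12 measured 27.8, 18.8, 29.6, 22.3 and 57.4 CPM in translocation tumours and 18.5, 30.8 and 99.1 CPM in Rosa26 tumours, against 719.5 CPM in muscle. The highest Rosa26 value was in tumour 1, the tumour with the highest skeletal muscle marker level, and the tumour groups overlapped (log2 fold change -0.31 ± 0.44, edgeR adjusted p = 0.703). Without Rosa26 tumour 1 the fold change was 0.18. Slc25a22, a glutamate carrier, measured 7.02 to 26.7 CPM in translocation tumours and 9.31 to 32.0 CPM in Rosa26 tumours, against 9.28 CPM in muscle.

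The ratio within a library of Slc25a4 to Slc25a5, and that of Slc25a12 to Slc25a13, was lower in all 11 tumours than in muscle, while the tumour models overlapped for each of the 6 pairs with enough counts. The log2 ratio of Slc25a4 to Slc25a5, per length, was 0.70, 2.53, 1.14, 1.17 and 0.96 in translocation tumours and 1.28 to 2.84 in Rosa26 tumours, against 5.95 in muscle. The highest ratios were in translocation tumour 2 and Rosa26 tumour 1, the tumours with the most skeletal muscle marker RNA of their groups. Rosa26 tumour 3, second in its group for those markers (4918 CPM), had the lowest ratio of its group, 1.28. Translocation tumour 5, also second in its group for them (680 CPM), was at 0.96. The part of skeletal muscle RNA in the ratio was not tested. The log2 ratio of Slc25a12 to Slc25a13 was -0.20, 1.79, 1.41, 0.23 and -1.36 in translocation tumours and 1.11 to 3.74 in Rosa26 tumours, against 8.37 in muscle. Its mean was 0.38 ± 1.27 in translocation tumours and 1.98 ± 1.005 in Rosa26 tumours (SD, n = 5 and 6). Translocation tumours 1 and 5 had more Slc25a13 than Slc25a12 per length, which held for no Rosa26 tumour. For Slc25a23 to Slc25a24, both calcium-regulated ATP-Mg/phosphate carriers, the ratio was -3.77 to -2.56 in translocation tumours and -3.35 to -1.48 in Rosa26 tumours, against -3.17 in muscle, which lay within the tumours' range. For Slc25a39 to Slc25a40, the glutathione carriers, it was 2.61 to 5.28 and 2.24 to 4.66 in translocation and Rosa26 tumours, against 3.45 in muscle.

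**Figure D4:**
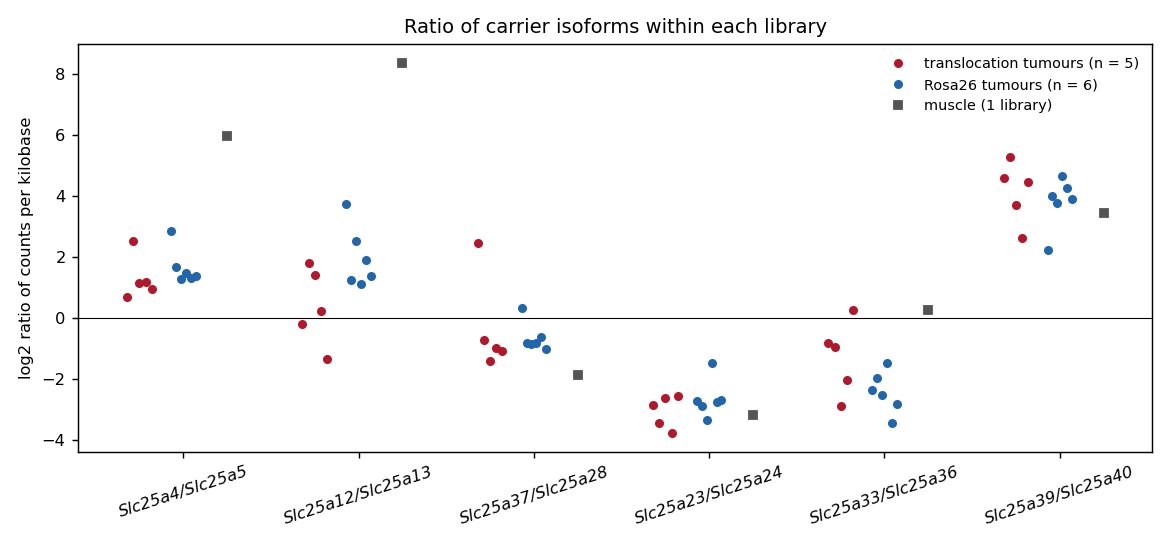
Log2 ratio of counts per kilobase (vertical axis) of 6 carrier pairs in each translocation tumour, Rosa26 tumour and the muscle library. Muscle lies above all tumours for Slc25a4/Slc25a5 (5.95) and Slc25a12/Slc25a13 (8.37), and the tumour models overlap in each pair.

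The mitoferrins import iron for haem and iron-sulfur clusters, Slc25a37 chiefly in erythroid cells and Slc25a28 in other tissues. Slc25a37 measured 214, 27.6, 9.50, 15.1 and 10.1 CPM in translocation tumours and 10.3, 12.7 and 34.9 CPM in Rosa26 tumours, against 56.3 CPM in muscle. A single library, translocation tumour 1, stood above all others. The 8 erythroid markers summed to 11384 CPM in that tumour, 154 to 460.2 CPM in the other translocation tumours and 3.499 to 1004 CPM in Rosa26 tumours, against 5407 CPM in muscle, and the Rosa26 tumour with 1004 CPM was the one with 34.9 CPM of Slc25a37. Rosa26 tumour 4, with the lowest erythroid sum (3.499 CPM), had the second highest Slc25a37 of its group, 15.4 CPM. The part of erythroid RNA in the Slc25a37 level was not tested. The fold change of Slc25a37 was 1.84 ± 0.80 (edgeR adjusted p = 0.178) with all tumours and -0.044 without translocation tumour 1. Slc25a28 measured 24.2, 28.5, 15.6, 18.4 and 13.4 CPM in translocation tumours and 11.4, 13.9 and 17.5 CPM in Rosa26 tumours, against 128 CPM in muscle. It lay below muscle in all 11 tumours, and the tumour groups overlapped (log2 fold change 0.53 ± 0.26, edgeR adjusted p = 0.230). Of 8 other haem and iron genes, 0 passed the test between tumour models, against 2.70% of all genes. Among these 8 were Tfrc, the transferrin receptor, and Alas2, the erythroid enzyme of the first step of haem synthesis.

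The uncoupling proteins differed in where they were detected. Ucp3 had 0 counts in each of the 5 translocation tumours, and 526, 0, 28, 1, 1 and 2 counts in Rosa26 tumours 1 to 6, against 3399 in muscle. The Rosa26 tumours with 526 and 28 counts, 1 and 3, were the same 2 with the highest skeletal muscle marker sums of their group, while translocation tumour 2, with 7638 CPM of those markers, had 0 counts of Ucp3 in the smallest library. Against a floor of 3 counts over the translocation libraries, which covers counting error only, Ucp3 was at least 8645-fold lower in translocation tumours than in muscle, and at least 3154-fold lower when libraries were scaled by their totals alone.

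Ucp1, the proton channel of brown fat, showed the opposite detection. It measured 0.864, 14.0, 53.6, 6.11 and 0.186 CPM in translocation tumours (9, 32, 1321, 118 and 4 counts) and 0.525, 4.97 and 9.25 CPM in Rosa26 tumours, against 0 counts in muscle. Its mean was at least 51.1-fold higher in translocation tumours and at least 17.3-fold higher in Rosa26 tumours than the muscle's floor of 3 counts, or at least 143-fold and 48.5-fold by library totals alone. Without translocation tumour 3 the bound for translocation tumours was 18.1-fold, or 39.9-fold by library totals. Translocation tumour 5, at 0.186 CPM, lay below the muscle's floor of 0.293 CPM. Between models the log2 fold change was 1.59 ± 1.07 (edgeR adjusted p = 0.379), without translocation tumour 3 it was 0.043, and translocation tumours held both the highest and the lowest value of all tumours. Cidea, a brown fat gene, was at 298 CPM in translocation tumour 5, where Ucp1 was at 0.186 CPM, and at 0.731 CPM in translocation tumour 3, where Ucp1 was at 53.6 CPM. Adipoq and Plin1, defining markers of fat cells, were at 0 and 0.0812 CPM in translocation tumour 3, but at 41.3 and 25.1 CPM in Rosa26 tumour 1, which had the highest Ucp1 of its group. Rosa26 tumours 2 and 5 followed with Ucp1 at 8.21 and 7.28 CPM. Adipoq was at 0 and 0.0383 CPM in these 2 tumours, and Plin1 at 0.0789 and 0.153 CPM. The 8 fat cell markers summed to 11.3 to 323 CPM in translocation tumours (12.7 CPM in tumour 3) and 11.6 to 310.1 CPM in Rosa26 tumours (highest in tumour 1), against 198 CPM in muscle. Their part in the Ucp1 level was not tested.

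Ucp2, the form found in immune and many other cells, measured 91.3, 52.1, 33.4, 19.6 and 11.4 CPM in translocation tumours and 38.0, 94.1 and 153 CPM in Rosa26 tumours, against 15.4 CPM in muscle. Its fold change of -1.12 ± 0.53 did not pass the test (edgeR adjusted p = 0.210), and the groups overlapped. The 9 macrophage markers summed to 653 to 3017 CPM in translocation tumours and 874 to 2451 CPM in Rosa26 tumours, against 165 CPM in muscle. Among translocation tumours the lowest sum, 653 CPM, and the lowest Ucp2 were both in tumour 5, and among Rosa26 tumours the lowest sum, 874 CPM, and the lowest Ucp2 were both in tumour 6. Rosa26 tumour 5 was the highest of its group in both. Translocation tumour 2 had the highest sum, 3017 CPM, but less Ucp2 (52.1 CPM) than tumour 1 (91.3 CPM), whose sum was 2322 CPM. Rosa26 tumour 1, with a sum of 979 CPM, had more Ucp2 (76.8 CPM) than tumour 2 (58.1 CPM), whose sum was 1296 CPM. The part of the macrophage markers in the Ucp2 level was not tested. Of the related Slc25a14, Slc25a27 and Slc25a30, the last was above muscle in all tumours, at 10.96 to 19.6 CPM in translocation tumours and 14.2 to 28.3 CPM in Rosa26 tumours, against 6.84 CPM in muscle.

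Carriers of carboxylates and acylcarnitines link the matrix to fatty acid synthesis and oxidation. Slc25a1, the citrate carrier, measured 30.6, 62.6, 29.9, 33.3 and 26.6 CPM in translocation tumours and 19.0, 42.0 and 54.5 CPM in Rosa26 tumours, against 1.76 CPM in muscle. It stood above muscle by 4.21 (log2) in translocation and 4.32 in Rosa26 tumours, and its log2 fold change between models was -0.067 ± 0.32 (edgeR adjusted p = 0.92). Slc25a10, the dicarboxylate carrier, was above muscle by 1.97 and 1.39 in translocation and Rosa26 tumours. Slc25a11, the oxoglutarate/malate carrier, measured 69.2, 70.5, 206, 72.2 and 139 CPM in translocation tumours and 38.7, 64.9 and 77.7 CPM in Rosa26 tumours, against 544 CPM in muscle (edgeR adjusted p = 0.140 between models). Slc25a20, the carnitine-acylcarnitine carrier, measured 34.4, 21.9, 32.0, 26.8 and 45.9 CPM in translocation tumours and 12.4, 20.3 and 26.7 CPM in Rosa26 tumours, against 175 CPM in muscle. Its log2 fold change was 0.74 ± 0.26 (edgeR adjusted p = 0.109), and all tumours were below muscle. Slc25a33, a pyrimidine nucleotide carrier, measured 8.16, 3.94, 2.11, 3.58 and 14.7 CPM in translocation tumours and 1.19, 2.46 and 3.41 CPM in Rosa26 tumours, against 27.6 CPM in muscle (log2 fold change between models 1.53 ± 0.53, edgeR adjusted p = 0.108).

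Among the carriers of cofactors and of other amino acids 0 passed the edgeR test between the tumour models, against 2.70% of all genes. Among the cofactor carriers, which bring in coenzyme A, folate, S-adenosylmethionine and NAD, the highest log2 fold change was 0.80, that of Slc25a17 of the peroxisome membrane (edgeR adjusted p = 0.201). The 5 carriers of other amino acids ran from -0.32 to 0.19. Slc25a16, one of the cofactor carriers, measured 20.4, 21.0, 23.3, 22.7 and 20.9 CPM in translocation tumours and 18.4 to 26.6 CPM in Rosa26 tumours, against 88.8 CPM in muscle. Slc25a24 averaged 50.9 ± 9.77 CPM in translocation tumours and 50.9 ± 13.7 CPM in Rosa26 tumours, against 55.0 CPM in muscle. The remaining members with the most negative fold changes were Slc25a34 (-0.72 ± 0.90, edgeR adjusted p = 0.662), Slc25a27 (-0.64 ± 0.40, edgeR adjusted p = 0.345) and Slc25a35 (-0.50 ± 0.65, edgeR adjusted p = 0.678). Slc25a34 and Slc25a35 rest on levels at or under 3.15 CPM in every tumour.

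Against muscle, 45 members passed the filter over 12 libraries, and a member was called when its mean differed at least 2-fold with every tumour on the same side. In translocation tumours 8 members were higher (17.8%) and 19 lower (42.2%), against 20.0% and 19.5% of 22184 genes. In Rosa26 tumours 9 were higher (20.0%) and 19 lower (42.2%), against 31.1% and 23.4% of genes. Both comparisons share the muscle library. The members' median difference was -0.54 and -0.75 (log2) in translocation and Rosa26 tumours, and that of all genes 0.30 and 0.36. These counts depend on scaling, because the 15 skeletal muscle markers alone took 23.6% of the muscle library's counts and its TMM factor was 0.409. By library totals alone, 18 members were higher and 6 lower in translocation tumours (38.5% and 7.59% of genes), and 20 higher and 8 lower in Rosa26 tumours (50.6% and 8.01% of genes). The medians were then 0.50 and 0.69 for the members and 1.23 and 1.37 for all genes, so that the members' median lay below that of all genes under either scaling. With DESeq2 size factors the members' medians were -0.66 and -0.89, against 0.21 and 0.25 for all genes.

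The members lower under all 3 scalings in both tumour groups were Slc25a4, Slc25a12, Slc25a20, Slc25a28, Slc25a34 and Ucp3. Slc25a34 measured 0.672, 0.876, 0.0406, 0.104 and 0.930 CPM in translocation tumours and 0.158, 0.359 and 2.43 CPM in Rosa26 tumours, against 37.8 CPM in muscle, a difference of -6.25 and -5.84 (log2). Slc25a4 differed from muscle by -4.32 and -5.04 with TMM and by -2.95 and -3.60 with library totals, and Slc25a12 by -4.64 and -4.39 and by -3.27 and -2.95. Leaving out Rosa26 tumour 1, where skeletal muscle genes took 10.3% of counts, the Rosa26 differences with TMM were -5.30 for Slc25a4 and -4.70 for Slc25a12. Slc25a3 was called lower with TMM (-1.73 and -2.35) but was not called with library totals (-0.37 and -0.91). Slc25a1, Slc25a10, Slc25a13, Slc25a30, Slc25a45, Slc25a53 and Ucp1 were called higher in both groups under each scaling.

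**Figure D5:**
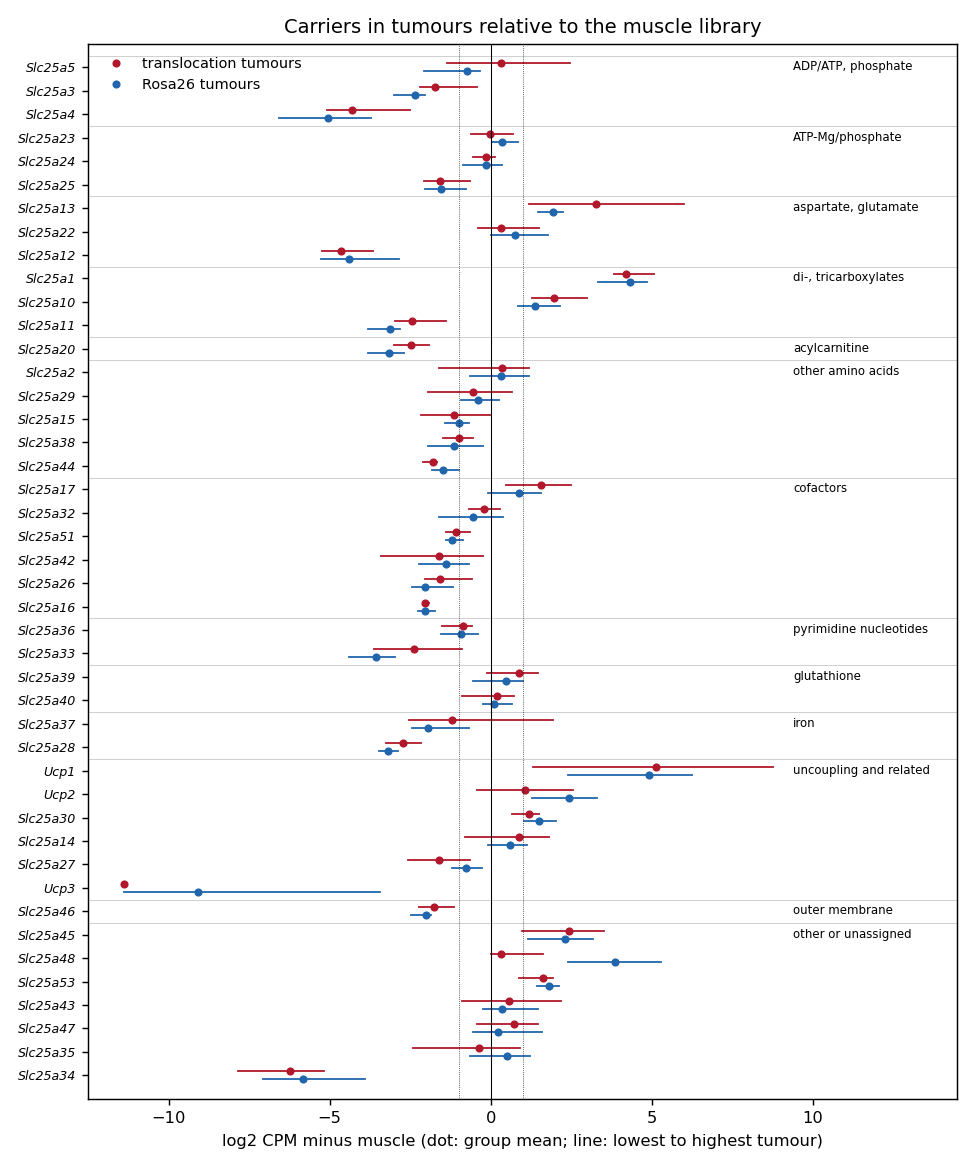
Difference in log2 CPM from the muscle library (horizontal axis, TMM scale) for 44 of 45 members by transported substrate; dots are the means of translocation and of Rosa26 tumours and lines run from the lowest to the highest tumour. Dotted lines mark 2-fold. For Ucp1, Ucp3 and Slc25a48, where a group is at 0 counts, the position is set by the prior count.

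Genes that work with the carriers gave 0 edgeR calls between the tumour models in each list, against 2.70% of all genes. Of the 47 tested genes of all lists, 14 (29.8%) were at an unadjusted p under 0.05, against 24.8% of all genes. DESeq2 called 4 of 43 (Mtch2, Timm10, Timm13 and Timm8b; 9.30%, against 14.9% of all genes) and voom called these and 4 others, among them Esrra and Mpc2 (17.02%, against 15.6%). In edgeR, sex as a covariate gave 6 calls (Ak1, Ckb, Mtch2, Timm10, Timm13 and Timm8b; 12.8%, against 14.9%), and leaving out Rosa26 tumour 2 gave 1 (Timm13). Beside the 8 haem and iron genes, the lists held 10 genes for inserting carriers into the inner membrane, 7 for outer membrane channels and pyruvate carriers, 4 for the malate-aspartate shuttle, 7 for energy transfer (6 tested), 5 for the carnitine shuttle and 7 regulators of mitochondrial biogenesis. The smallest adjusted p was 0.0607 in edgeR, for Timm13, a chaperone of the intermembrane space that escorts carriers, at 64.0 CPM in translocation tumours and 26.2 CPM in Rosa26 tumours on average. Against muscle with TMM, 6 of 7 channel and pyruvate carrier genes were lower in each tumour group, and 3 and 4 of the 4 shuttle enzymes in translocation and Rosa26 tumours, where 19.5% and 23.4% of all genes were lower. By library totals, 3 and 6 of the 7 and 1 and 2 of the 4 were lower in translocation and Rosa26 tumours, against 7.59% and 8.01% of all genes. Creatine kinases did not all move in 1 direction in the same comparison. Ckmt2, the mitochondrial form of muscle, averaged 0.950 CPM in translocation tumours and 9.03 CPM in Rosa26 tumours, against 192 CPM in muscle (0.0929 CPM without translocation tumour 2 and 0.469 CPM without Rosa26 tumour 1), while Ckb, the brain form, averaged 90.4 and 52.2 CPM, against 2.25 CPM. Ckmt1, another mitochondrial creatine kinase, did not rise. It averaged 7.61 CPM in translocation tumours (33.3 CPM in tumour 2) and 3.96 CPM in Rosa26 tumours, against 11.1 CPM in muscle. Cpt1b and Cpt1c, the muscle and brain forms of carnitine palmitoyltransferase, averaged 1.38 and 37.5 CPM in translocation tumours and 1.41 and 43.1 CPM in Rosa26 tumours, against 60.2 and 0.586 CPM in muscle. Without Rosa26 tumour 1 the Rosa26 mean of Cpt1b was 0.170 CPM. Cpt1a, a further form, had the highest mean of the 3 in both tumour groups. It averaged 55.5 CPM in translocation tumours and 74.3 CPM in Rosa26 tumours, against 24.9 CPM in muscle.

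Translocation tumour 5 was the highest of the 11 tumours for 13 of 44 members (29.5%) and the lowest for 8 (18.2%), against 27.8% and 26.9% of all genes tested. It was at least 2-fold above the median of the other translocation tumours for 13 members (29.5%), against 24.3% of genes, and at least 2-fold below it for 7 (15.9%), against 30.9%. Ppargc1a, a coactivator of mitochondrial biogenesis, was at 27.4, 18.0, 6.17, 1.04 and 99.7 CPM in translocation tumours and 6.30 to 20.1 CPM in Rosa26 tumours, against 37.6 CPM in muscle, highest in the same tumour 5. Among translocation tumours, Tfam, Nrf1 and Gabpa were also highest in tumour 5, and Ppargc1b was lowest there (3.91 CPM). Esrra was highest in tumour 2 (96.3 CPM, against 67.9 CPM in tumour 5) and Ppara in tumour 1. The part of these regulators in the carrier levels was not tested. Rosa26 tumour 4 was the lowest for 12 members (27.3%), against 18.4% of genes. The sources used here do not give whether counting used strand. Reads of Slc25a11, Slc25a25, Slc25a35, Slc25a37, Slc25a53, Ucp2 and Ucp3 may therefore be shared with genes that overlap them, and those of Slc25a5 with its pseudogene.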

How the data were processed

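RNA libraries of 12 mouse samples were made from ribosome-depleted RNA with a stranded kit, per the labels' protocols. The authors deposited whole-number read counts per Ensembl gene, not normalized. Per the submitters' processing notes the tools were featureCounts, RSEM, STAR 2.7.5a, cutadapt and DESeq2, with no role or order, on build mm10, and the strand setting is not given in the sources used here. Symbols and lengths came from GENCODE M21, and all 55536 identifiers matched. Groups followed the genotype in the labels.

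Translocation over Rosa26 was tested with edgeR 4.0.16 in R 4.3.3 on 11 tumours (TMM, filterByExpr with a minimum count of 10, robust quasi-likelihood fit, Benjamini-Hochberg adjustment over all genes at 0.05), and the steps were tested on simulated data. Muscle was compared by rule, without a test, as differences in log2 CPM (prior count 2). Alternatives used DESeq2 1.42.0 and limma 3.58.1, other filters and scalings, covariates and left-out libraries. Named members are those called, the tissue isoform sets, the 5 largest fold changes in each direction and the 6 members farthest above and below muscle with at least 10 CPM (4 qualified above); other values are ranges, and the partner genes, Slc25a11, Slc25a16, Slc25a20 and Slc25a22 were named after their values were seen. Members and lists were chosen with earlier results of these data known. The values of 1 member are not reported here by name. Floors of 3 counts cover counting error only. Depth was 2.96 to 25.04 M counts, so genes with few counts are measured least precisely.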

Additional observations from a re-analysis of the deposited data

Results flagged for a closer look

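Single libraries stood far from the rest of their group for 7 of the 40 combinations of a named member and a tumour group examined. The measure was the gap to the nearest sample as a share of the group's range on the log2 CPM scale. For normally scattered values of members not picked on these data, chance would give about 1 in 20 such cases. Some named members were picked for large fold changes or distance from muscle in these libraries, so 7 of 40 cannot be set against that rate. The high levels flagged in translocation tumours were Slc25a4 at 1484 CPM and Slc25a3 at 633 CPM in tumour 5, and Slc25a1 at 62.6 CPM in tumour 2. Slc25a48 at 0.259 CPM in translocation tumour 4 rests on 5 counts, where the other 4 had 0. In Rosa26 tumour 4, Slc25a3 at 105.2 CPM and Slc25a5 at 22.6 CPM lay below the rest. Slc25a37 at 34.9 CPM in Rosa26 tumour 1 lay above the rest.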

How the results depend on the processing

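No paired analysis was possible because the labels give the tumours no shared replicate numbers. Between tumour models, the counts of members higher, members lower and all genes called were 0, 1 and 460. DESeq2's Wald test gave 4, 1 and 2439, limma voom 1, 1 and 2651, and sex as a covariate 4, 1 and 2534; the members called higher with sex were Slc25a13, Slc25a17, Slc25a3 and Slc25a5. The labels give no sex, so it was inferred from the level of sex-linked genes. Tumour 5 was the single male among the translocation tumours, so that the covariate and that library are largely confounded in this group. Rosa26 tumours 2, 3, 5 and 6 were inferred male and 1 and 4 female. Sex and tumour model are therefore partly confounded in the comparison between models. Slc25a48 was not called, leaving 0 members lower, with a filter of 1 CPM in 5 libraries, with muscle kept in the fit, with Rosa26 tumours 5 and 6 summed (91 genes in all), with the skeletal muscle level as a covariate (286 genes), and without translocation tumours 2 and 5 and Rosa26 tumour 4, where 1 member, Slc25a5, was called higher (0.69). Leaving out translocation tumour 2 and Rosa26 tumours 1 and 3, chosen after seeing the data for their skeletal muscle markers, gave 0, 0 and 27. Leaving out 1 tumour at a time gave 0 to 1 members higher, 0 to 1 lower and 63 to 744 genes in all: dropping translocation tumour 1 or 5 gave 112 or 744 genes, and dropping Rosa26 tumour 3, 4, 5 or 6 gave 63, 262, 123 or 75. Against muscle, leaving out 1 tumour gave 8 to 9 higher and 19 to 20 lower in translocation tumours, and 9 to 10 higher and 18 to 20 lower in Rosa26 tumours. An edgeR fit of 12 libraries, which assumes that the lone muscle library varies like the tumours, called 1 higher and 10 lower in translocation and 1 higher and 13 lower in Rosa26 tumours. Library totals without TMM, added after seeing the data, gave 18 and 6 and 20 and 8.

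Fold changes of some named members changed sign. Slc25a24 was -0.12 with voom, -0.0052 without a filter, -0.087 without translocation tumours 2 and 5 and Rosa26 tumour 4, and -0.041 to 0.16 leaving out 1 tumour. Slc25a35 was 0.086 with voom and 0.21 without those 3 tumours, where Slc25a4 was -0.098. Slc25a25 was -0.020 with Rosa26 tumours 5 and 6 summed, -0.26 with sex, -0.34 without translocation tumour 2 and Rosa26 tumours 1 and 3, where Slc25a12 was 0.39, and -0.26 to 0.28 leaving out 1 tumour. Leaving out 1 tumour, Slc25a1 ran from -0.34 to 0.048, Slc25a12 from -0.65 to 0.18 and Slc25a37 from -0.044 to 2.22. The cause of these changes was not tested.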
